A study of Mus musculus with 24 samples.

Results

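The MYC, MAX and MXD network is a set of transcription factors that share a basic helix-loop-helix leucine zipper. Its 10 members here are Myc, Mycn, Mycl, Max, Mxd1, Mxi1, Mxd3, Mxd4, Mnt and Mga. The list goes by gene symbol, with no threshold on a measured value, but it was drawn up with earlier results of these data known. All 10 were found among the 17721 genes of the authors' deposited table. MAX is the shared partner. MYC, MYCN and MYCL pair with MAX and activate genes for growth and division, whereas the MXD proteins, MXI1 and MNT pair with MAX and repress genes through the SIN3 corepressor, which carries histone deacetylases. MGA also pairs with MAX and belongs to the polycomb complex PRC1.6. These dimers bind the E-box CACGTG, which is also the site bound by the clock activator pair of BMAL1 with CLOCK or NPAS2. In mouse epidermis, excess MYC drives stem cells into proliferation and differentiation, and several MXD genes are known to be expressed as cells leave the cell cycle, with Mxd3 an exception that is expressed in dividing cells.

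The knockout animals, called EpiKO, carried a knockout of Bmal1 (gene symbol Arntl) driven by a keratin 14 Cre, and were compared with wild-type (WT) mice. EpiKO samples were back skin epidermis of 24 male C57BL/6 mice aged 8 weeks, 4 at each of 6 times, from lights on, which is zeitgeber time 0 (ZT0), every 4 h until ZT20, with 12 h light and 12 h dark. Since the keratin 14 promoter is active in basal keratinocytes, melanocytes, Langerhans cells and T cells of the epidermis are not its targets. WT libraries are not among the samples of this series. The files hold a cosine fit per gene and genotype with no value per library. Depth and the spread between animals are therefore unknown, and an effect of genotype cannot be told apart from one of how each set of libraries was produced. The table labels its sides WT and FC, and FC was taken as EpiKO. In that side Arntl (chromosome 7, 113207465 to 113314126) was assigned no rhythm, against a 4.65-fold rhythm in WT, with a weight of 0.882 per the authors' deposited table. Its daily mean was 9.65 in EpiKO and 9.50 in WT, with a weight of 0.719 for unequal means, per the authors' deposited table. The level of the targeted gene was thus not lower on the side taken as EpiKO, and that naming rests on the absent rhythm and on there being 2 sides. Every direction between genotypes given here depends on it.

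For each gene the authors' fit gives 5 rhythm models a weight between 0 and 1, and the weights sum to 1. The models are no rhythm, a rhythm in EpiKO only, a rhythm in WT only, the same rhythm in both genotypes, and different rhythms in the 2 genotypes. A gene was assigned to the best model where its weight was at least 0.5. Weights are not p-values, and no test over animals was possible. Levels are log2 values, the height of a rhythm is peak minus trough of the fitted curve, and a fold is 2 to the power of that height. Fitted levels are values of the curve, not measurements.

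Of the 10 members 5 were rhythmic in WT only, namely Mycn, Mycl, Mxi1, Mxd4 and Mnt. Mxd1 had the same rhythm in both genotypes, Mxd3 had different rhythms, and Myc and Mga had no rhythm. Max was left unassigned, and no member was assigned a rhythm in EpiKO only. With a weight of at least 0.8 in place of 0.5, Mnt was the 1 member in the WT-only class. Shares of all genes at 0.8 are not given, and those that follow are at 0.5. Over all 17721 genes, 8.41% were assigned a rhythm in WT only, 16.7% the same rhythm, 2.65% different rhythms, 4.31% a rhythm in EpiKO only and 56.7% no rhythm, while 11.3% were unassigned. Of the members 8 lie at 7.61 (log2) or above, the median over all genes of the mean level. Among the 8861 genes at that level, 12.1% were assigned a rhythm in WT only, 24.9% the same rhythm, 3.59% different rhythms, 4.84% a rhythm in EpiKO only and 40.6% no rhythm, while 14% were unassigned. Single models hide how much weight stayed elsewhere, so weights were also summed over every model with a rhythm in a genotype. The summed weight for a rhythm in EpiKO had a median of 0.273 over the members, against 0.884 for a rhythm in WT. Over all genes the medians were 0.181 for EpiKO and 0.213 for WT. A summed weight of at least 0.5 was reached by 2 members in EpiKO and 8 in WT, beside 29.2% of all genes in EpiKO and 34.5% in WT. Among genes at or above the median level these shares were 40.8% in EpiKO and 48.9% in WT.

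**Figure D1:**
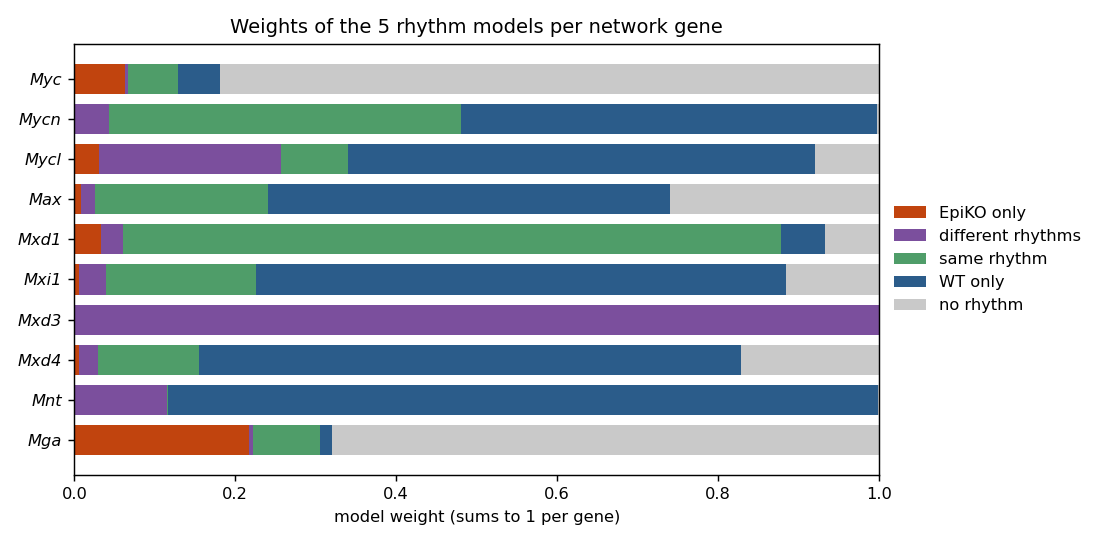
Weights of the 5 rhythm models for the 10 network genes per the authors' deposited table. Each bar is a gene and its segments sum to 1. Mxd3 lies entirely in the model of different rhythms, Mnt has 0.882 in WT only, and Mycn is divided between WT only (0.516) and the same rhythm (0.438).

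Promoters are shown for the members whose windows held the E-box CACGTG or letters like the site of E2F factors. Whether these letters have a part in the rhythms was not tested. RefSeq promoter windows of GRCm38.p6, from 250 bases before to 50 bases after each start, matched 9 of the 10 members, with 11 windows in all. Myc had no entry. The E-box CACGTG, which reads the same on both strands, was found in windows of 3 members, Mnt, Mxd4 and Max, and in 7.15% of all 32851 windows. It was present in 10.8% of windows of genes rhythmic in WT only, 11.8% of those with the same rhythm, 10.2% of those with different rhythms, 8.24% of those rhythmic in EpiKO only and 7.64% of those with no rhythm. Mnt and Mxd4 were assigned a rhythm in WT only, and that was also the best model of Max. In the following lines capitals mark the E-box, which begins 123 bases before the start in Mnt, 219 bases before it in Mxd4 and 3 bases before it in Max.
Mnt, chr11:74830674-74830973, plus strand: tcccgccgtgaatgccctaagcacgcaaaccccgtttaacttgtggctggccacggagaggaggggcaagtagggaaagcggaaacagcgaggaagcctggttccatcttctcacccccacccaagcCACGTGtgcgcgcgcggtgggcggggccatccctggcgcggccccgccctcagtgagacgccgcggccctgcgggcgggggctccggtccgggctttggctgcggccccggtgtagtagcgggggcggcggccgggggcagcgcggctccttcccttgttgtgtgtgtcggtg
Mxd4, chr5:34187661-34187960, minus strand: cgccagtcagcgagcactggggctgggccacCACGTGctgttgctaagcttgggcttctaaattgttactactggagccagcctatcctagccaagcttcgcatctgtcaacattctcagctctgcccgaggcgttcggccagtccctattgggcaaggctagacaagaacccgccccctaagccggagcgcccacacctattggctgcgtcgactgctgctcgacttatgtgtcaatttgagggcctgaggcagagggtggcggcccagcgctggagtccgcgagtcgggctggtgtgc
Max, chr12:76962199-76962498, minus strand: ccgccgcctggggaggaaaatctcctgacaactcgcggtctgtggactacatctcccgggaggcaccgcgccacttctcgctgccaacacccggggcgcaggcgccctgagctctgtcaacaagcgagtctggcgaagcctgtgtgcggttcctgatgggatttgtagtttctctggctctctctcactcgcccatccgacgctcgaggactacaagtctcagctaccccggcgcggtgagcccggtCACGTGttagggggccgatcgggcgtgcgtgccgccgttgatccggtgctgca
Windows of the other 3 members rhythmic in WT only, Mycn, Mycl and Mxi1, held no CACGTG. No match says only that these letters are absent from the window.

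The members with the largest rhythms, Mxd3 and Mycn, were the 2 with an E2F-type match. E2F factors drive genes of DNA replication, and their site was searched on both strands as GCGGGAA, as the variant GCGCGAA and as the variant GCGCCAA. A match was present in 8.07% of all windows, in 24.9% of windows of genes with different rhythms, 15.3% of those rhythmic in WT only, 14.3% of those with the same rhythm, 11.8% of those rhythmic in EpiKO only and 10.4% of those with no rhythm. Capitals mark the matches, which begin 182, 179 and 167 bases before the start in Mycn, the first pair overlapping, and 136 bases before it in Mxd3.
Mxd3, chr13:55329682-55329981, minus strand: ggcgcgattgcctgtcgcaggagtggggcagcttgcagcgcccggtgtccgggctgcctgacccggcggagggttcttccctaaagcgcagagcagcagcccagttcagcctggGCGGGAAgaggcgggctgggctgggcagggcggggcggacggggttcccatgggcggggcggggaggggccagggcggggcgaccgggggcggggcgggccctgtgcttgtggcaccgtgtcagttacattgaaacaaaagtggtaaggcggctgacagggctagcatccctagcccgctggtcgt
Mycn, chr12:12941787-12942086, minus strand: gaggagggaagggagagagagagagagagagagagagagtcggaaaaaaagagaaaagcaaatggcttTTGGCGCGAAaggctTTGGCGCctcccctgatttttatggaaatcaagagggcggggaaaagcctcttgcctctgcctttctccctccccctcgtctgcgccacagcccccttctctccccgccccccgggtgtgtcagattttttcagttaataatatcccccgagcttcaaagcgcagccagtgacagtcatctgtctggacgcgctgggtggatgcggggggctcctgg
The related letters CACGTT were found in 1 of the members' windows, an Mxi1 window, and in 4.68% of all windows. The letters AGGTCA, part of the site of ROR and REV-ERB receptors, was in no member window and in 16.3% of all windows. These motifs other than CACGTG were added with the rhythms known, and a match is a description of the letters.

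Among the activating members, Myc was the most abundant and had no daily rhythm in either genotype. Myc (ENSMUSG00000022346; chromosome 15, 61985391 to 61990374, mm10) was fitted with a level of 11.84 at every time in EpiKO and in WT per the authors' deposited table. The model without rhythm had a weight of 0.819, and the model with equal means had 0.609, so a difference in mean kept a weight of 0.392 per the authors' deposited table. Myc messenger RNA is short-lived and MYC protein is regulated after translation, so its flat level speaks of the messenger RNA alone.

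Mycn, an activator best known from neural progenitors, cycled strongly in WT (chromosome 12, 12936093 to 12941914). In the authors' deposited table its fitted level was 5.95 at every time in EpiKO. In WT it was 6.50 at ZT0, 5.57 at ZT4, 5.02 at ZT8, 5.40 at ZT12, 6.33 at ZT16 and 6.88 at ZT20 per the authors' deposited table. The WT curve thus had its low in the light phase and its peak at ZT20.4, with a 3.66-fold amplitude. A height at least as large was found in 2.77% of the 5914 genes with a WT rhythm. The call was narrow, since the model of the same rhythm in both genotypes had a weight of 0.438 beside 0.516 for WT only per the authors' deposited table. A rhythm of Mycn in EpiKO therefore kept a summed weight of 0.481, and the rhythm in WT had 0.997. Mycn was also the least abundant member in both genotypes, on the scale of level per kb of exon.

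Mycl, the third activating gene (chromosome 4, 122995652 to 123002485), had a shallow WT rhythm. Its fitted level was 11.03 throughout in EpiKO, against a range of 10.87 at ZT0 to 11.19 at ZT12 in WT, per the authors' deposited table. The amplitude in WT was 1.26-fold with a peak at ZT13.0, close to the median of 1.28-fold over all genes with a WT rhythm. The weight was 0.58 for WT only and 0.225 for different rhythms per the authors' deposited table. The daily means of Mycn and Mycl were assigned as equal in the 2 genotypes, with weights of 0.796 and 0.807.

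Max, which encodes the shared partner of the network, was close to the limit of assignment. Its level was 9.47 in EpiKO, against 9.35 at ZT0 to 9.60 at ZT12 in WT, per the authors' deposited table. The best model, a rhythm in WT only with a 1.19-fold amplitude and a peak at ZT12.7, had a weight of 0.499, just under the limit of 0.5, per the authors' deposited table. Mycn, at 0.516, was the member just above that limit. No rhythm had 0.26 and the same rhythm 0.216 for Max per the authors' deposited table. Its mean was assigned as equal in both genotypes with a weight of 0.866.

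**Figure D2:**
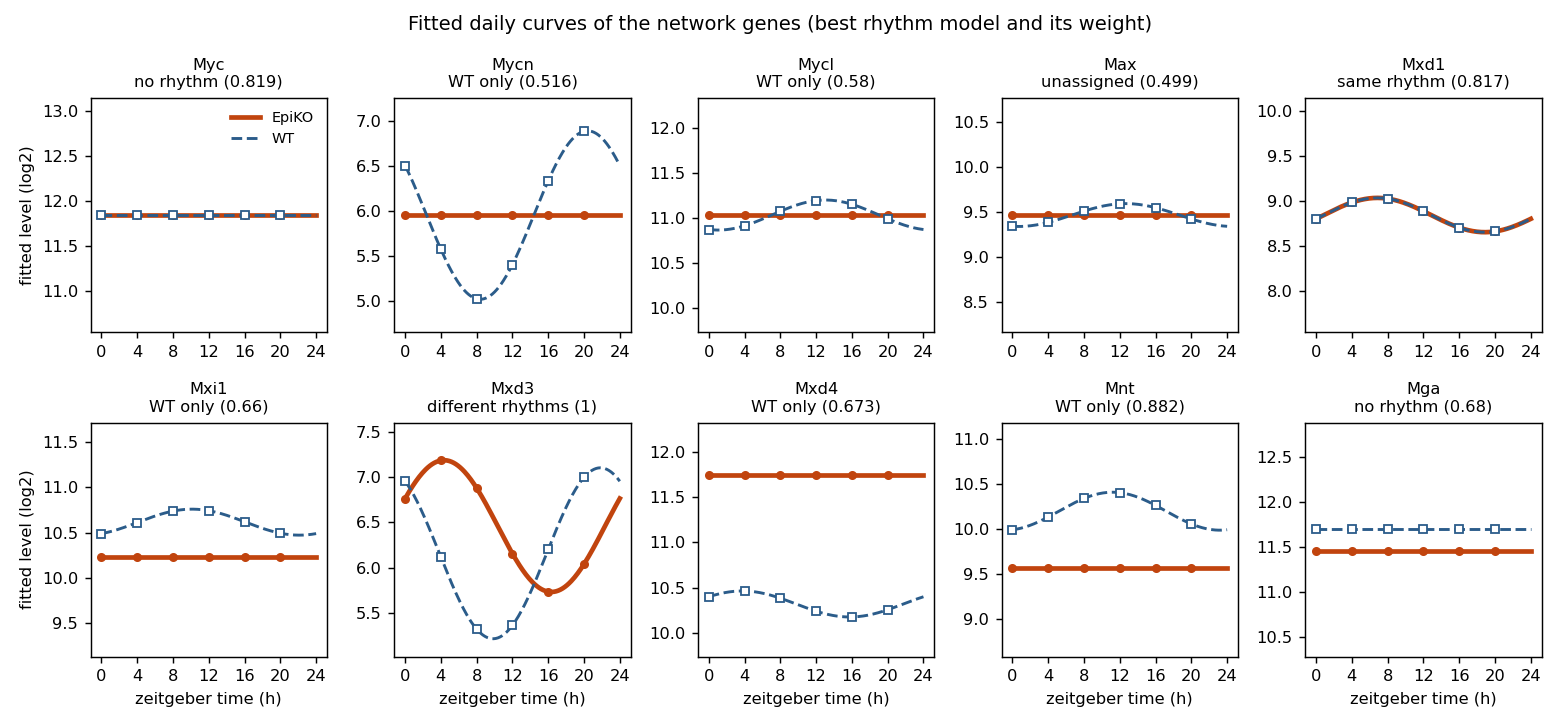
Fitted daily curves of the 10 network genes, with zeitgeber time in hours across and log2 level up, for EpiKO (solid line, filled circles) and WT (dashed line, open squares). Symbols are values of the fitted curve at the 6 sampled times, not library values, and each panel spans the same height in log2. The WT curve of Mycn and both curves of Mxd3 are the steepest, and the EpiKO curve of Mxd4 lies 1.43 above its WT mean.

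Among the repressing members Mnt had the largest weight for a rhythm in WT only, together with a lower mean in EpiKO. MNT is the most widely expressed antagonist of MYC (chromosome 11, 74830920 to 74845725). Its fitted level was 9.57 at every time in EpiKO per the authors' deposited table. In WT it was 9.99 at ZT0, 10.14 at ZT4, 10.34 at ZT8, 10.41 at ZT12, 10.27 at ZT16 and 10.06 at ZT20 per the authors' deposited table. The EpiKO level was thus below the lowest point of the WT curve, 9.99. The WT rhythm was 1.34-fold with a peak at ZT11.2 and the weight for WT only was 0.882 per the authors' deposited table. A rhythm in EpiKO had a summed weight of 0.117. The mean differed by -0.63 (log2, EpiKO minus WT), a ratio of 0.645, with a weight of 1 for unequal means per the authors' deposited table.

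Mxi1 had a similar course with a smaller height. MXI1, also called MXD2, restrains MYC activity in differentiating cells (chromosome 19, 53310518 to 53375810). Its level was 10.23 in EpiKO, against 10.49 at ZT0 and 10.74 at ZT12 in WT, per the authors' deposited table. Here too the EpiKO level lay below the WT trough of 10.47. The WT rhythm was 1.22-fold with a peak at ZT10.1 and a weight of 0.66, and the mean differed by -0.39 (log2, EpiKO minus WT) per the authors' deposited table. Peaks of Mxi1, Mnt, Mycl and the unassigned Max in WT fell between ZT10.1 and ZT13.0, around the change from light to dark. The other WT peaks were away from it, at ZT3.75 for Mxd4, ZT6.86 for Mxd1, ZT20.4 for Mycn and ZT21.8 for Mxd3.

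Mxd4 was the member with the largest change in mean. MXD4 is a repressor found in differentiating and resting cells (chromosome 5, 34173883 to 34187720). Its level was 11.74 at every time in EpiKO, against 10.40 at ZT0, 10.46 at ZT4, 10.38 at ZT8, 10.24 at ZT12, 10.17 at ZT16 and 10.25 at ZT20 in WT, per the authors' deposited table. The EpiKO level was above the whole WT curve. The mean difference was 1.43 (log2, EpiKO minus WT), which is 2.69-fold higher in EpiKO, with a weight of 1 for unequal means per the authors' deposited table. A mean difference of at least this size, in either direction, was present in 16.3% of all genes. The WT rhythm of Mxd4 was 1.22-fold and peaked at ZT3.75, in the early light phase, unlike those of Mnt and Mxi1, with a weight of 0.673 for WT only per the authors' deposited table.

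Mxd1 kept its rhythm. MXD1, the founding MXD protein, is induced as keratinocytes differentiate (chromosome 6, 86647042 to 86669161). In both genotypes the fitted level was 8.80 at ZT0, 8.98 at ZT4, 9.03 at ZT8, 8.89 at ZT12, 8.70 at ZT16 and 8.66 at ZT20 per the authors' deposited table. The shared rhythm was 1.30-fold with a peak at ZT6.86 and a weight of 0.817, and equal means had 0.838, per the authors' deposited table. The model of the same rhythm sets 1 curve for both genotypes, so the equal peak times are part of the model.

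Mxd3 was rhythmic in both genotypes, with a later peak in EpiKO. MXD3 is a repressor expressed in dividing progenitor cells (chromosome 13, 55325168 to 55329823). In EpiKO its fitted level was 6.77 at ZT0, 7.19 at ZT4, 6.88 at ZT8, 6.15 at ZT12, 5.73 at ZT16 and 6.04 at ZT20 per the authors' deposited table. In WT it was 6.96 at ZT0, 6.12 at ZT4, 5.32 at ZT8, 5.36 at ZT12, 6.20 at ZT16 and 7.0 at ZT20 per the authors' deposited table. The peak stood at ZT4.35 in EpiKO, against ZT21.8 in WT, which is 6.52 h later in EpiKO. The amplitude was 2.76-fold in EpiKO and 3.73-fold in WT, a ratio of heights of 0.771, per the authors' deposited table. Heights at least as large were found in 6.56% of genes with a rhythm in EpiKO and 2.62% of those with one in WT. The weight of different rhythms was 1, and the mean was higher in EpiKO by 0.30 (log2) with a weight of 0.918 per the authors' deposited table. Of the 470 genes with different rhythms, 327 peaked 3 to 12 h later in EpiKO, so the direction of the shift of Mxd3 was the common one in that class.

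Mga, the largest gene of the network, was flat (chromosome 2, 119897228 to 119969581). Its level was 11.46 in EpiKO and 11.71 in WT per the authors' deposited table. No rhythm had a weight of 0.68, a rhythm in EpiKO only had 0.217, and unequal means had 1, per the authors' deposited table. A mean difference of that size, -0.25 (log2, EpiKO minus WT), was reached or passed by 53.7% of all genes in either direction.

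By the authors' model of the mean, 2 members were higher in EpiKO (Mxd4, Mxd3), 3 were lower (Mnt, Mxi1, Mga) and 5 were equal. Over all genes 32.7% were higher, 37.4% lower and 29.9% equal, and among genes at or above the median level 44.4% were higher, 36.7% lower and 18.9% equal. The number of members with a changed mean, 5 of 10, was not above this background. The median difference over the members was 0, as it was over all genes. In bulk tissue, fewer cells of a type and less RNA per cell cannot be told apart. Keratinocyte markers dominated these libraries, with basal markers such as Krt5 and Krt14 at 13.4 to 17.7 in EpiKO and 13.7 to 17.8 in WT (log2, daily means per the authors' deposited table). Fibroblast markers reached at most 8.23 in EpiKO and 7.99 in WT, and endothelial markers 4.78 in EpiKO and 4.41 in WT, per the authors' deposited table. Marker lists of other cells differed between the EpiKO and WT sides, though not every marker within a list did. Fibroblast markers summed to 9.79 in EpiKO and 9.48 in WT (log2 of the summed level), with 3 of 6 higher in EpiKO and 0 lower. Endothelial markers summed to 5.38 in EpiKO and 4.92 in WT, with 4 of 5 higher and 0 lower. Some of these levels were very low, as for Cdh5 at 0.56 in EpiKO and -1.77 in WT per the authors' deposited table. The T cell markers summed to 11.56 in EpiKO and 10.53 in WT, with 3 of 4 higher in EpiKO and 0 lower. Thy1 made up most of both sums, at 11.25 in EpiKO and 10.16 in WT, while Cd3e was assigned equal means, per the authors' deposited table. Langerhans cell markers summed to 12.00 in EpiKO and 11.64 in WT, with 3 of 5 higher and 1 lower. The lower one was Csf1r, at 7.03 in EpiKO and 8.70 in WT, per the authors' deposited table. Epcam had the highest level of that list and was assigned equal means at 10.82 per the authors' deposited table. Differentiating keratinocyte markers summed to 18.38 in EpiKO and 18.74 in WT, with 2 of 8 higher and 4 lower, and basal markers to 19.08 in EpiKO and 19.15 in WT, with 1 of 7 higher and 3 lower. The melanocyte list summed to 8.48 in EpiKO and 9.61 in WT, with 0 of 5 higher, 2 lower and 3 assigned equal means. The 2 lower were Tyr, the rate-limiting enzyme of pigment synthesis, at 3.60 in EpiKO and 8.65 in WT, and Pmel at 6.61 in EpiKO and 7.05 in WT, per the authors' deposited table. Muscle markers summed to 5.96 in EpiKO and 9.95 in WT, with 2 of 5 higher and 2 lower. Acta1 made up most of the WT sum, at 2.21 in EpiKO and 9.90 in WT, while Mylpf was at 5.74 in EpiKO and 4.87 in WT, per the authors' deposited table. The part of these markers in the members' mean differences was not tested.

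Levels of different genes were compared per kb of exon, using the merged exons of GENCODE M21. In EpiKO the order was Myc (10.40, log2 level per kb), Mycl (9.02), Mxd4 (8.66), Max (7.62), Mga (7.52), Mxi1 (7.46), Mnt (7.36), Mxd1 (6.02), Mxd3 (5.22) and Mycn (4.23). In WT Myc and Mycl led with the same values, followed by Mnt (7.99), Mxi1 (7.84), Mga (7.77), Max (7.62), Mxd4 (7.23), Mxd1 (6.02), Mxd3 (4.91) and Mycn (4.23). Mxd4 thus stood in place 3 in EpiKO and place 7 in WT. Whether neighbours in this order differ beyond the spread between animals cannot be given. Among the repressing genes Mxd1, Mxi1, Mxd3, Mxd4 and Mnt, Mxd4 made up 47.8% of the summed level per kb in EpiKO and 20.6% in WT. Mnt made up 19.4% in EpiKO and 34.9% in WT, and Mxi1 20.7% in EpiKO and 31.5% in WT. The summed level of these 5 repressing genes over that of Myc, Mycn and Mycl was 0.448 in EpiKO and 0.386 in WT. Without Mxd4, an alternative added after the values were seen, the ratio was 0.234 in EpiKO and 0.307 in WT, so the direction of the difference depends on Mxd4. Over the 6 sampled times the ratio, made from fitted curves, ran from 0.437 to 0.464 in EpiKO and from 0.368 to 0.411 in WT. Curves are flat wherever the chosen model has no rhythm, so the narrower range in EpiKO depends on the choice of model. The daily means of Myc, Mycn and Mycl are likewise equal in both genotypes by the chosen model of the mean. All these ratios are of messenger RNA, and isoforms of unequal length would change them.

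**Figure D3:**
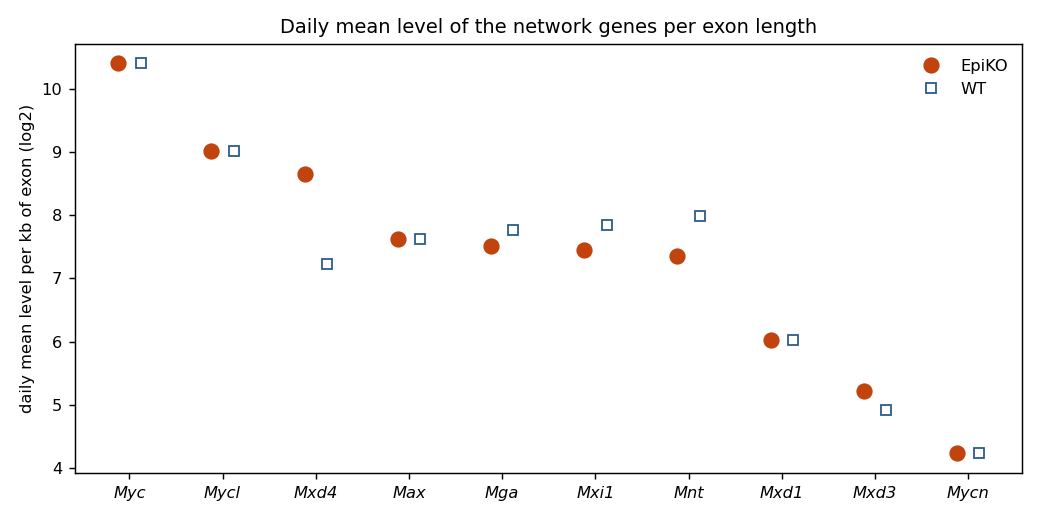
Daily mean level of the 10 network genes per kb of exon (log2), ordered by the level in EpiKO, for EpiKO (filled circles) and WT (open squares). There are no error bars because the files hold no library values. Mxd4 is at 8.66 in EpiKO and 7.23 in WT, while Mnt and Mxi1 are lower in EpiKO.

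Most members are free of sequence shared with other genes. Of the 51-base windows of a gene's transcripts, none occurred in transcripts of another gene for Myc, Mycn, Mycl, Max, Mxd1 and Mnt, and the share was 0.508% for Mga, 2.11% for Mxi1, 2.18% for Mxd3 and 5.36% for Mxd4. Mxi1, Mxd3 and Mxd4 overlap genes on the other strand. For Mxd4 this is Gm42846, and for Mxd3 it is Prelid1, which was assigned no rhythm and had a mean of 10.84 in EpiKO and 11.37 in WT per the authors' deposited table. The library kit keeps the strand but whether counting used it is not stated, so levels of these 3 genes are less certain.

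Genes with the most similar pair of curves were listed for each rhythmic member among genes of its class at or above the median mean level. Likeness was the root mean square difference over the 6 sampled times and both genotypes, after removal of the means. For Mxd3, out of 317 genes, these were Pbk, Aurkb, Nusap1, Top2a and Iqgap3, with differences of 0.0984 to 0.152 (log2). Aurkb, a mitotic kinase, peaked at ZT5.05 in EpiKO and ZT21.8 in WT, and Top2a, which untangles DNA before division, at ZT5.36 in EpiKO and ZT21.8 in WT, per the authors' deposited table. For Mycn, out of 1061 genes, the nearest were Mybl1, Leo1, Kitl, Hs3st6 and Plxnd1, at 0.240 to 0.280. No gene of its class at that level came as close as those of the other members. The difference grows with height, however, and Mycn had the largest height (1.87, log2) of the WT-only members. Mycn and Mxd3 themselves lie below the median level, so genes at their own level were not searched. Only the WT curve matters for genes rhythmic in WT only. For Mnt the list held Slc12a4, Krtcap3, Plekhh3, Extl1 and Crybg2 (0.00497 to 0.0126), and for Mxi1 Ppm1d, Kdm4b, Rpl13a, Zcchc14 and Tmc6 (0.00659 to 0.0079). For Mycl it held Aven, Hmces, Msantd2, Paqr4 and Tdp2 (0.00265 to 0.00792), and for Mxd4 Pgap1, Sypl, Slc16a13, Tmem106b and Ino80c (0.000142 to 0.00546). For Mxd1, out of 2182 genes, it held Thbs2, Pcmtd2, Gabarapl1, Fundc2 and Calcoco1 (0.000562 to 0.00444).

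The wider pathway was then described from lists of partners and targets. Counts in each class are to be read beside the shares of all genes, which were 16.7% with the same rhythm, 8.41% in WT only, 2.65% with different rhythms, 4.31% in EpiKO only and 56.7% with none. Among genes at or above the median level they were 24.9%, 12.1%, 3.59%, 4.84% and 40.6% in the same order. The MLX arm is a parallel network that senses glucose-derived metabolites. Of its 3 genes, Mlxip (1.47-fold, ZT9.32) and Mlx (1.21-fold, ZT17.6) had the same rhythm in both genotypes, and Mlxipl, which encodes ChREBP, was unassigned, per the authors' deposited table. Of 12 coactivator genes, which carry acetyltransferase and chromatin remodelling activity to MYC, 4 had the same rhythm, 1 had different rhythms and 5 none, beside 16.7%, 2.65% and 56.7% of all genes. Ruvbl2 (1.25-fold, ZT19.0), Actl6a (1.17-fold, ZT19.2), Smarcb1 (1.12-fold, ZT21.3) and Wdr5 (1.13-fold, ZT16.3) made up the first group per the authors' deposited table. Kat2a, an acetyltransferase, had 1.16-fold at ZT20.1 in EpiKO and 1.27-fold at ZT17.3 in WT per the authors' deposited table. The coactivators' mean was lower in EpiKO in 8 of 12 and higher in 2, beside 37.4% and 32.7% of all genes.

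Of 14 genes that control the turnover of MYC protein, 5 had the same rhythm, 2 different rhythms, 1 a rhythm in WT only and 4 none, beside 16.7%, 2.65%, 8.41% and 56.7% of all genes. Among genes at or above the median level these shares were 24.9%, 3.59%, 12.1% and 40.6%. Aurka, a mitotic kinase that also stabilises MYCN, had 1.83-fold at ZT5.18 in EpiKO and 2.35-fold at ZT23.1 in WT per the authors' deposited table. Cip2a, an inhibitor of the phosphatase that destabilises MYC, had 1.49-fold at ZT7.15 in EpiKO and 1.74-fold at ZT23.3 in WT per the authors' deposited table. Skp2, a ubiquitin ligase subunit, was rhythmic in WT only (1.51-fold, ZT18.7), and Btrc shared a 1.25-fold rhythm with a peak at ZT4.88 per the authors' deposited table.

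On the repressing side, 12 SIN3 corepressor genes held 6 with no rhythm, 3 with the same rhythm, 1 in WT only and 1 in EpiKO only. These counts were near the background of 40.6%, 24.9%, 12.1% and 4.84% among genes at or above the median level. Hdac2 (1.18-fold, ZT19.5), Sin3b (1.11-fold, ZT6.67) and Hdac1 (1.10-fold, ZT0.281) were those with the same rhythm, Rbbp4 (1.12-fold in WT, ZT15.5) was in WT only and Suds3 (1.18-fold in EpiKO, ZT16.4) in EpiKO only, per the authors' deposited table. Of 12 PRC1.6 genes, the partners of MGA, 5 had the same rhythm, 3 a rhythm in WT only, 1 different rhythms and 2 none, beside 16.7%, 8.41%, 2.65% and 56.7% of all genes. Among genes at or above the median level these shares were 24.9%, 12.1%, 3.59% and 40.6%. Wdr5, Hdac1 and Hdac2 are on 2 of these lists. E2f6, which encodes a DNA-binding subunit, was rhythmic in WT only (1.47-fold, ZT15.5), as was L3mbtl2 (1.46-fold, ZT18.7), per the authors' deposited table. Tfdp1 had 1.18-fold at ZT19.1 in EpiKO and 1.39-fold at ZT16.3 in WT, and Pcgf6 shared a 1.34-fold rhythm at ZT16.5, per the authors' deposited table. Mga itself, the scaffold of the complex, was flat.

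Of 52 genes that MYC is known to activate 27 shared 1 rhythm between genotypes, 8 a rhythm in WT only, 3 in EpiKO only, 3 different rhythms and 10 none. Of all genes 16.7% had the same rhythm, 8.41% a rhythm in WT only, 4.31% in EpiKO only, 2.65% different rhythms and 56.7% none. Among genes at or above the median level these shares were 24.9%, 12.1%, 4.84%, 3.59% and 40.6%. Of the 27 with the same rhythm, 24 peaked between ZT14 and ZT22, with a mean of ZT17.3 and a median amplitude of 1.24-fold. Of all genes with the same rhythm 42.1% peaked in that window, and 38.3% of those at or above the median level. Of same-rhythm genes on the other lists, 4 of 4 coactivators and 4 of 5 PRC1.6 genes peaked there as well, with Wdr5 on both lists. The remaining lists had 2 of 5 turnover genes, 1 of 3 SIN3 genes, 1 of 2 MLX arm genes and 0 of 2 repressed targets there. The 8 genes rhythmic in WT only peaked between ZT14.5 and ZT17.7, with a median of 1.53-fold, and 34.2% of all genes in that class peaked between ZT14 and ZT22. The list was chosen with earlier results of these data known, so its counts are not independent evidence. The window from ZT14 to ZT22 was not planned in advance, and it holds the mean peak of these targets. Shares inside it are a description only. The largest amplitudes belonged to Ccnd2, Hk2, Cad and Ccne1. Ccnd2, a cyclin of early G1, had 1.39-fold at ZT16.1 in EpiKO and 3.20-fold at ZT9.94 in WT per the authors' deposited table. Cad, an enzyme of pyrimidine synthesis, had 1.38-fold at ZT21.0 in EpiKO and 1.92-fold at ZT19.8 in WT per the authors' deposited table. Hk2, a hexokinase (2.10-fold, ZT16.2, weight 0.5), and Ccne1, a cyclin of S phase entry (1.85-fold, ZT15.6), were rhythmic in WT only per the authors' deposited table. The 3 rhythmic in EpiKO only, named after their values were seen, were Odc1, Cdc25a and Impdh2. Odc1, the enzyme that starts polyamine synthesis, had 1.81-fold at ZT4.37 in EpiKO, and its mean difference was -1.12 (log2, EpiKO minus WT), per the authors' deposited table. Means of the 52 targets were higher in EpiKO in 14 genes and lower in 27, beside 32.7% higher and 37.4% lower over all genes and 44.4% and 36.7% at or above the median level, with a median difference of -0.10 (log2), against 0 over all genes.

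Of 6 genes linked to repression by MYC, Ndrg1 (1.85-fold, ZT7.20) and Cdkn2b (1.51-fold, ZT23.1) had the same rhythm, Cdkn1b was rhythmic in WT only (1.35-fold, ZT7.34) and Zbtb17, which encodes the MYC partner MIZ1, in EpiKO only (1.17-fold, ZT23.7), per the authors' deposited table. Cdkn1a, a cyclin-dependent kinase inhibitor, had no rhythm, and Gadd45a was unassigned.

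**Figure D4:**
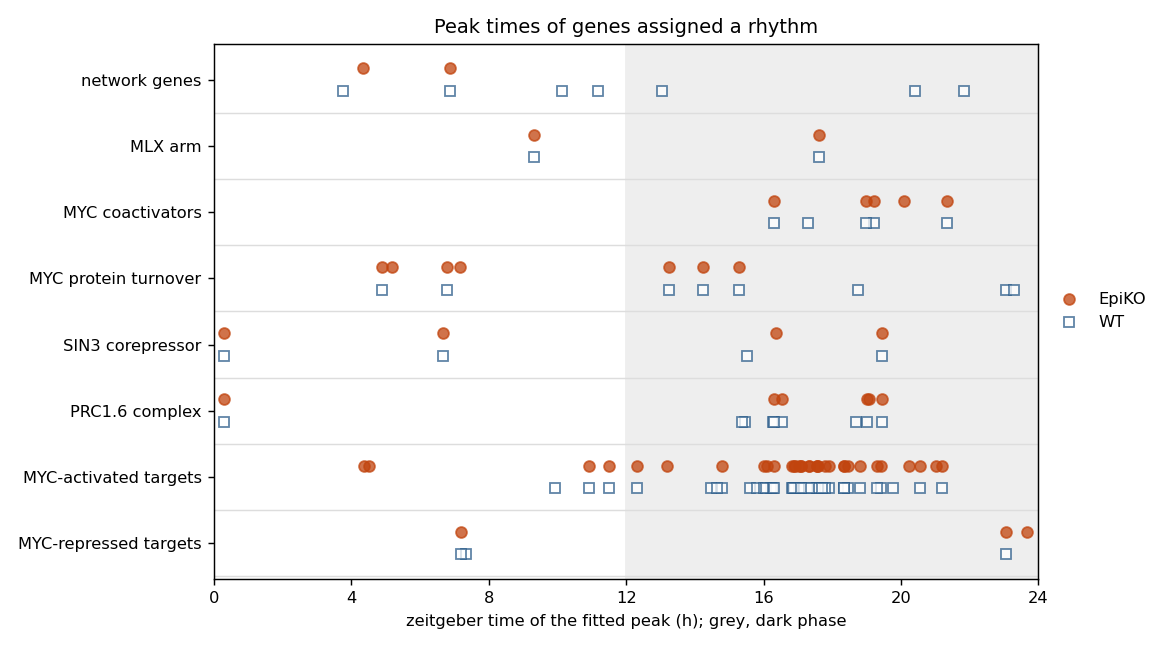
Fitted peak times (h) of genes assigned a rhythm in each list, for EpiKO (filled circles) and WT (open squares), with the dark phase in grey. Genes with the same rhythm have equal peak times in both genotypes by construction. Most activated targets lie between ZT14 and ZT22, and the network genes are spread over the day.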

How the data were processed

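The single file used is the authors' rhythm comparison by dryR, per the series design text. The submitters' processing notes name mm10 as the build, edgeR, featureCounts 1.6.0, HISAT2 2.2.1, Trimmomatic 0.36 and SAMtools 1.3.1. The authors deposited mean levels on a log2 scale, and no source used here gives the scaling between libraries. Each model weight is a score from 0 to 1, as deposited by the authors. Weights sum to 1 for 17721 of 17721 genes, and heights equal 2 times the root of the summed squared coefficients within 1e-06. Depth is unknown. Symbols matched 17720 identifiers.

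The members, lists and motifs were chosen with earlier results of these data known. The window from ZT14 to ZT22 for peak times was not planned in advance. Named genes are the members, Arntl, and the 5 nearest curves per rhythmic member, with predicted (Gm and Rik) genes left out. From partner and target lists, up to 4 rhythmic genes by amplitude are named, or all where 5 or fewer are rhythmic. Cell type markers and some other genes, such as Mlxipl, Cdkn1a, Gadd45a and Odc1, were named without this rule. Of 168 list entries 166 were used, and Flg and Trdc are not analysed here. Curve and motif code was tested on simulated data. Positions come from GENCODE M21 and promoters from RefSeq, both of the mm10 assembly. Alternatives were other weight limits, a minimum height, sums of weights, and for means a minimum difference and centring. Python 3.11.15, NumPy 2.4.6, pandas 2.3.3 and Matplotlib 3.10.9 were used.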

Additional observations from a re-analysis of the deposited data

How the results depend on the processing

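The files hold no library values, so spread and depth could not be weighed, and leaving out replicates was not possible. No paired analysis was possible because the columns carry no replicate numbers. With a weight of at least 0.8, 1 member, Mnt, was in the WT-only class (5 at 0.5) and 1, Myc, in the class with no rhythm (2 at 0.5). At that limit the lists gave, for WT only and the same rhythm, 0 and 1 SIN3 genes, 1 and 2 PRC1.6 genes, and 0 and 1 repressed targets, with 4 activated targets in WT only and 2 turnover genes with the same rhythm. A minimum height of 0.25 (log2) moved 1 coactivator, Kat2a, into WT only (0 without it), since its height in EpiKO was 0.21. The same minimum gave 1 coactivator, 1 turnover gene and 1 PRC1.6 gene with the same rhythm, and 0 SIN3 genes in either class. With no minimum weight, 1 MLX arm gene, 1 coactivator and 2 SIN3 genes were in WT only. Sums of model weights over the members gave 0.364 for EpiKO only and 2.02 for the same rhythm. With a minimum mean difference of 0.5 (log2), 1 member was higher and 1 lower in EpiKO. Shares of all genes under these other limits are not given, so the counts here have no background beside them. The level ratio of repressing to activating genes, EpiKO over WT, was 1.16, and 0.762 without Mxd4. The other 47 recomputed values were within 1.5 times those given. Of these, centring and dropping the minimum mean weight could not change the counts of members by mean. The median difference was already 0, and the larger of 2 mean weights is always at least 0.5.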
